A study of Arabidopsis thaliana with 33 samples.

Results

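The comparison described here set nuclear RNA of the Arabidopsis thaliana double mutant arp6;brm against that of wild type (WT). All gene rows of the authors' deposited table for this pair were taken, 22352 genes of the 23044 listed in at least 1 of the 3 RNA tables of the series, and the 3 rows that count reads without a gene were left out. Particular attention went to the 1627 genes that passed the threshold in the double mutant and in neither single mutant. These genes, all of them listed in all 3 tables, are called unshared here, which is a statement about calls and not about differences.

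The study worked with shoots staged at 4-5 leaves, from plants grown on soil under 16 h of light and 8 h of dark. RNA-seq was made from 3 biological replicates, per the series' design text, of each of 4 genotypes: WT, arp6 (allele arp6-1), brm (allele brm-1) and the double mutant that carries both alleles. No agent was applied to any group. The RNA came from nuclei, so that unspliced and newly made transcripts weigh more than in RNA of whole cells. The WT libraries were the same 3 in all comparisons, so the noise of those libraries is shared by the 3 tables.

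ARP6 is an actin-related subunit of SWR1, the complex that exchanges the histone H2A for the variant H2A.Z in nucleosomes near gene starts. BRM (BRAHMA) is the ATPase of a plant SWI/SNF complex that slides or removes nucleosomes. Plants that lack either protein are viable but flower and grow abnormally, and the variant and the remodeler have been linked both to activation and to repression of genes. The series title speaks of both acting together and against each other, which is what a comparison of the double mutant with WT and with each single mutant addresses.

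The mutated genes were checked first. BRM stood at a log2 fold change of -8.87 in the double mutant (adjusted p 2.41e-163), -5.64 in brm (adjusted p 4.2e-94) and -0.01 in arp6, per the authors' deposited tables. ARP6 stood at -5.60 in the double mutant (adjusted p 8.2e-53), -5.73 in arp6 (adjusted p 1.54e-44) and 0.27 in brm, per the authors' deposited tables. Both transcripts were thus low in the double mutant, as its label says. Green leaf markers were expressed throughout, with average log2 CPM (counts scaled to equal library totals) of 3.4 to 12.2 for all 24. Of the root, flower and pollen, and seed markers listed, 6 of 10, 14 of 16 and 16 of 17 lay under a log2 CPM of 1. In bulk tissue, fewer cells of a type and less RNA per cell cannot be told apart. The tables give 1 fold change, 1 average level and 1 p-value per gene and no value per library, so library depths are unknown and the spread among replicates enters through the authors' p-values alone.

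Genes rose and fell in the double mutant in about equal number. At an adjusted p under 0.05 in the authors' deposited table, 2973 of 22352 genes (13.3%) passed, 1378 higher (6.16%) and 1595 lower (7.14%). In the tables for arp6 and brm, 6.03% (3.01% higher, 3.02% lower) and 13.8% (7.62% higher, 6.14% lower) of genes passed. All genes together had a median log2 fold change of 0.005, with quartiles of -0.42 and 0.42. When fold changes were rescaled so that the summed CPM of all genes was equal in mutant and WT, a shift of -0.081, 1820 genes were higher and 1266 lower. The balance of directions therefore depends on the scaling, while the total hardly moved, at 3086.

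**Figure D1:**
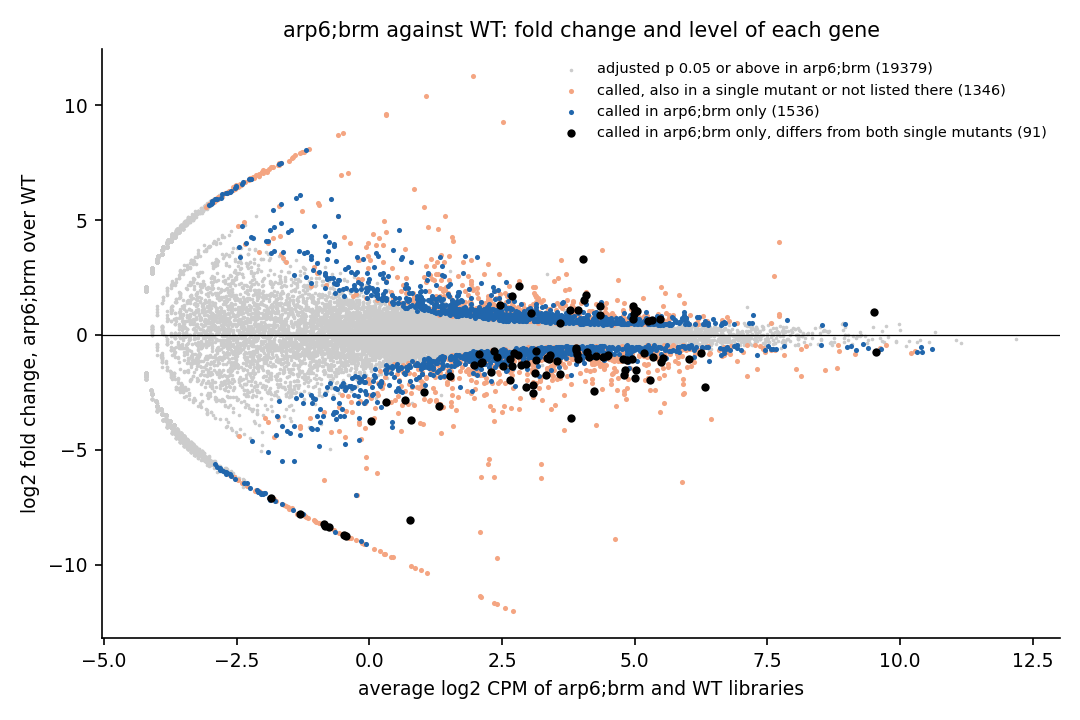
Each point is a gene of the arp6;brm table, with its average log2 CPM over the mutant and WT libraries on the x axis and its log2 fold change over WT on the y axis. The 1627 genes called in the double mutant and in neither single mutant (blue and black) lie above and below 0 at all levels, and the 91 of them that also differed from both single mutants (black) are mostly lower. The curved rims at low level hold genes with very large fitted folds, and such folds depend on the prior count of the fit.

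Of the genes that passed in the double mutant, 2913 were listed in all 3 tables (13.6% of such genes), and 1627 of them (55.9%) were unshared, which is 7.60% of the 21408 genes listed in all 3. Of these, 836 were higher (3.91%) and 791 lower (3.69%). With the rescaling above the split was 1164 higher and 592 lower. A further 60 genes passed in the double mutant but had no row in at least 1 single-mutant table, and 58 of the 60 had a log2 CPM under 1. All 60 were higher. The WT libraries are the same in all 3 tables, so such a gene is likely to be listed here through double-mutant reads alone. Their direction is therefore not read as a result. They are part of the 1378 genes called higher in the double mutant, but not of the 836 unshared ones.

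Most unshared changes were modest. The median absolute log2 fold change was 0.90 (quartiles 0.66 and 1.45), 927 genes were under 1, 277 reached 2 and 77 reached 5. The median fold change of the higher genes was 0.88 in the double mutant, 0.26 in arp6 and 0.22 in brm. For the lower genes it was -0.92, -0.23 and -0.23. These medians describe genes chosen by their values in the double mutant, and the larger value there follows from that choice. In the single mutants the medians had the sign of the double mutant and were smaller. The same WT libraries enter all these fold changes, so an error in them moves all of them the same way. The part of this in the shared sign was not tested.

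Many unshared genes sat close to the threshold in a single mutant. In arp6, 94 had an adjusted p from 0.05 to 0.1, and in brm 137 had, the lowest being 0.0504 and 0.0501. The sucrose exporter SWEET11 was one of the nearest, at -0.73 in the double mutant and -0.61 in arp6 with an adjusted p of 0.052, per the authors' deposited tables. An unadjusted p of 0.05 or above in both single mutants was met by 1008 of the unshared genes. The share of unshared genes was larger at higher level, from 2.4% to 6.3%, 8.3%, 9.0% and 10.9% over 5 equal bins of genes ordered by log2 CPM, while their median absolute fold change went from 5.95 in the lowest bin to 0.59 in the highest. The 5 chromosomes held similar shares, from 6.98% on chromosome 4 to 8.29% on chromosome 3. Protein-coding genes made up 1577 of the 1627.

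The difference between double and single mutant was then tested for each gene, with standard errors rebuilt from the deposited p-values. The fold change in the double mutant differed from that in arp6 at 740 of 21636 genes (3.42%), 229 higher (1.06%) and 511 lower (2.36%). It differed from that in brm at 1431 of 21569 genes (6.63%), 435 higher (2.02%) and 996 lower (4.62%). Among the unshared genes, 91 differed from both, 21 higher and 70 lower. With the WT part of the variance removed, the count was 378, with 163 higher and 215 lower. The test of the difference used the same double-mutant values that chose the genes, so it is no independent evidence for them. For the unshared genes other than the 91, the call in the double mutant is not shown to differ from both single mutants.

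**Figure D2:**
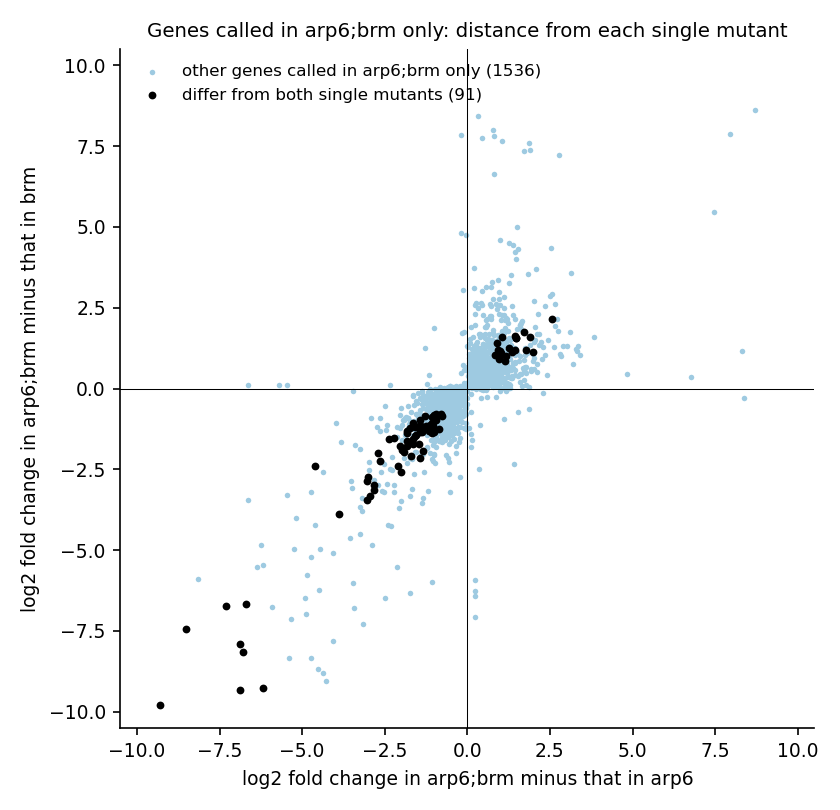
For each of the 1627 genes called in arp6;brm alone, the x axis gives the log2 fold change in the double mutant minus that in arp6, and the y axis that minus the one in brm. The 91 genes that differed from both (black) lie in the lower left (70) and the upper right (21), and 8 of the lower ones have fold changes of -5 or below in the double mutant.

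Among these 91 genes, the 10 largest changes in each direction with a log2 CPM of at least 1 are described by role. Of the 10 lower genes, 3 encode regulators. DREB26, a DNA-binding factor of the ERF/DREB family, stood at -3.60 in the double mutant (adjusted p 2.33e-08), 1.00 in arp6 and -1.19 in brm, per the authors' deposited tables. Its fold change in the double mutant minus that in arp6 was -4.60 (SE 0.74, adjusted p 1.3e-07), and minus that in brm -2.41 (SE 0.80, adjusted p 0.0405). The double mutant lay below both single mutants, which stood on opposite sides of WT without passing. RAV2, also known as TEMPRANILLO 2, a repressor of flowering, stood at -2.20 in the double mutant (adjusted p 1.31e-07), -0.22 in arp6 and -0.29 in brm, per the authors' deposited tables. BT1, a protein with BTB and TAZ domains that takes part in nitrate and hormone responses, stood at -2.54 (adjusted p 5.2e-08), 0.28 and 0.58 in the same order, per the authors' deposited tables. Neither single mutant passed the threshold for RAV2 or BT1.

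Chaperone and metabolic genes were among the lower genes with the smallest p. J8, a J-domain co-chaperone of the chloroplast, stood at -2.26 in the double mutant (adjusted p 1.41e-28), -0.24 in arp6 and 0.32 in brm, per the authors' deposited tables. UPM1, the methyltransferase of the siroheme branch that serves nitrite and sulfite reduction, stood at -1.96 (adjusted p 3.59e-26), -0.06 and -0.01, per the authors' deposited tables. Their levels were among the higher ones here, with log2 CPM of 6.33 and 5.29, and the single mutants were close to 0. PP2-A13, of the phloem protein 2 family, stood at -1.96 (adjusted p 9.61e-12), -0.14 and -0.33, per the authors' deposited tables.

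The other 4 of the 10 lower genes are known here by locus alone. AT5G19120 stood at -2.44 in the double mutant (adjusted p 3.17e-27), 0.38 in arp6 and 0.54 in brm, per the authors' deposited tables. AT3G62950 stood at -3.10 (adjusted p 3.18e-08), -0.15 and 0.23, per the authors' deposited tables. AT1G54010 stood at -2.26 (adjusted p 3.14e-13), -0.66 and -0.81, per the authors' deposited tables. For AT1G54010 and RAV2 the departure from the sum of the single-mutant changes did not pass (adjusted p 0.556 and 0.0627), while it passed for the other 8 lower genes. AT4G15690 stood at -2.50 (adjusted p 2.55e-05), 0.15 and -0.26, per the authors' deposited tables.

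AT4G15690 lies in the longest run of neighbouring unshared genes. The 5 genes AT4G15660, AT4G15670, AT4G15680, AT4G15690 and AT4G15700 follow each other on chromosome 4, and all were lower in the double mutant. Their fold changes in the authors' deposited table were -3.53, -2.30, -2.83, -2.50 and -3.75. In arp6 they ranged from -0.71 to 0.22 and in brm from -0.30 to 1.1, per the authors' deposited tables. Neighbouring copies of a gene family can share reads, and the part of such sharing was not tested. Runs of 3 were found at AT1G28570, AT1G28580 and AT1G28600 and at AT4G29020, AT4G29030 and RPT2a, a subunit of the proteasome, and both runs were higher.

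Of the 10 higher genes, 4 have a name here. MIR398c, a precursor of miR398, stood at 2.15 in the double mutant (adjusted p 2.5e-16), 0.66 in arp6 and 0.59 in brm, per the authors' deposited tables. EXPA15, an expansin that loosens cell walls, stood at 1.68 (adjusted p 4.99e-08), -0.04 and -0.06, per the authors' deposited tables. RLK (AT5G67280), a receptor-like kinase, stood at 1.28 (adjusted p 1.53e-11), -0.15 and -0.35, per the authors' deposited tables. SUMO2, a small protein that is attached to other proteins as a modifier, stood at 1.1 (adjusted p 1.36e-06), -0.36 and -0.11, per the authors' deposited tables. For EXPA15, RLK and SUMO2 neither single mutant was above WT, whereas MIR398c stood above WT in both single mutants without passing. The difference of MIR398c was 1.48 from arp6 (SE 0.43, adjusted p 0.0222) and 1.55 from brm (SE 0.45, adjusted p 0.013), but its change did not depart from the sum of both (0.89, SE 0.57, adjusted p 0.548).

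The 6 remaining higher genes are given by locus. AT2G30766 had the largest rise, 3.33 in the double mutant (adjusted p 1.22e-10), beside 0.77 in arp6 and 1.18 in brm, per the authors' deposited tables. AT4G20840 stood at 1.74 (adjusted p 9.1e-20), -0.04 and 0.53, and AT5G02760 at 1.5 (adjusted p 4.68e-15), -0.48 and 0.37, per the authors' deposited tables. AT1G68570, AT5G55620 and AT1G76955 stood at 1.24, 1.1 and 1.32 in the authors' deposited table, with single-mutant values from -0.35 to 0.18. The departure from the sum of the single-mutant changes did not pass for AT2G30766 (1.38, adjusted p 0.496) or AT1G76955 (adjusted p 0.0969), while it passed for the other 4. The call of AT1G76955 against both single mutants was lost when each table was centred on its median (adjusted p 0.0514 and 0.0508).

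**Figure D3:**
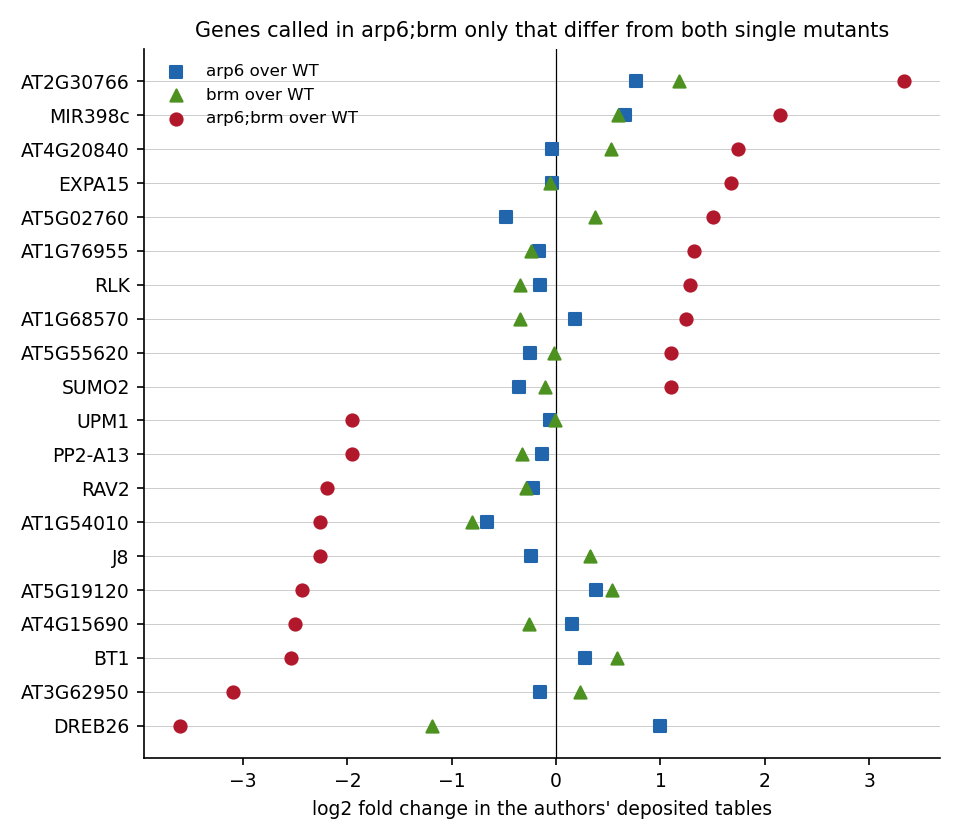
Rows are the 20 genes described, and the x axis gives the log2 fold change over WT in the authors' deposited tables for arp6 (squares), brm (triangles) and arp6;brm (circles). The circles lie outside the squares and triangles in every row, from 3.33 for AT2G30766 to -3.60 for DREB26, and this order is fixed by how the genes were chosen.

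The functions of the unshared genes were described with 50 gene lists, of which 23 held at least 3 unshared genes, 6 held none, and 23 had a share above the 7.60% of all genes. The lists hold 137 unshared genes, and the other 1490 (91.6%) are in no list. Counts are therefore given list by list, to be read against the 7.60% of all genes that were unshared and the 6.16% and 7.14% called higher and lower, and no list was tested as a set.

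**Figure D4:**
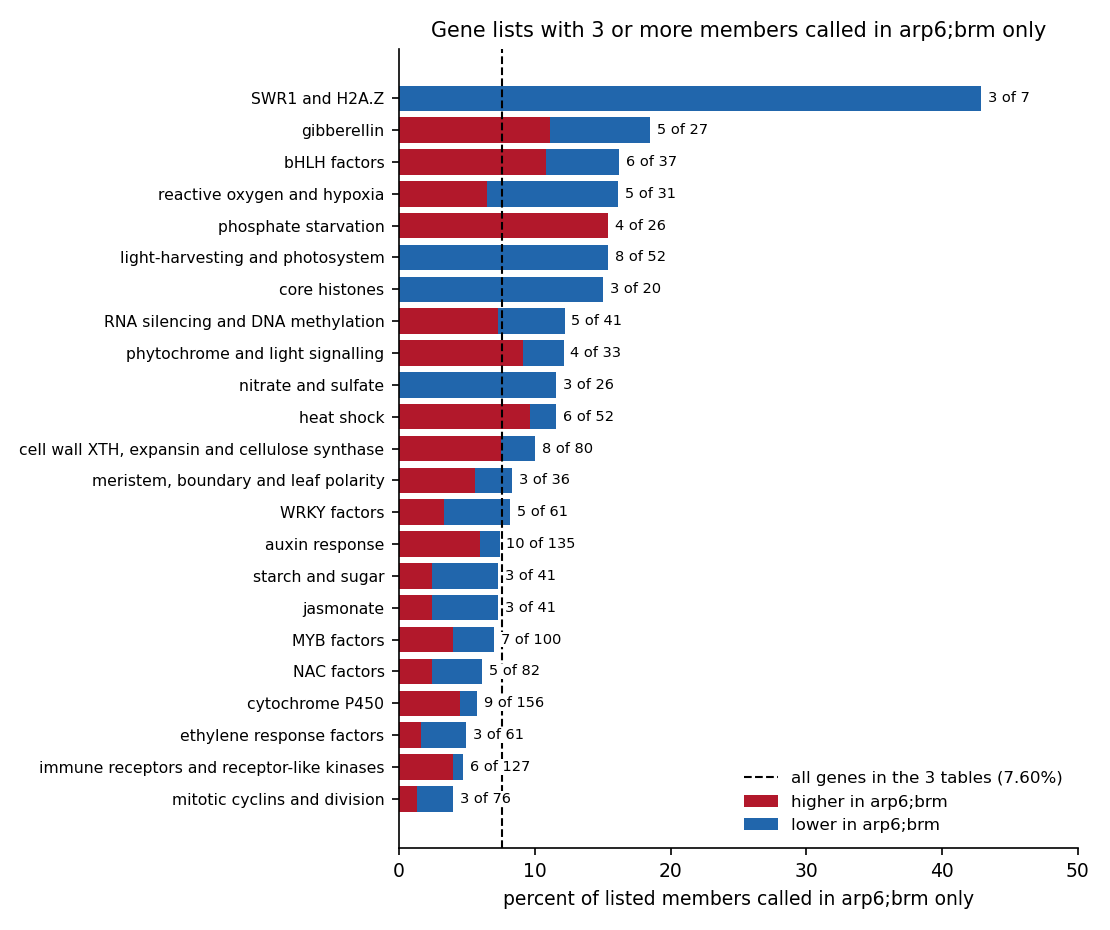
Bars give the percent of listed members called in the double mutant and in neither single mutant, split into higher (red) and lower (blue), for the 23 lists with at least 3 such genes. The numbers beside the bars are counts, and the dashed line marks 7.60%, the share of all genes. SWR1 and H2A.Z, photosystem, core histone and nitrate and sulfate genes were lower without exception among these members, and phosphate starvation genes higher.

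Of 7 listed SWR1 and H2A.Z genes, 4 fell, the mutated ARP6 among them, and 2 had fold changes above 0 without passing. The other 3 that fell were unshared, 42.9% of a list of 7, against 7.60% of all genes. SEF (SWC6), a subunit of SWR1, stood at -2.22 in the double mutant (adjusted p 0.000975), -0.32 in arp6 and -0.08 in brm, per the authors' deposited tables. HTA9, which encodes a main form of H2A.Z and had the highest level of the list, stood at -0.52 (adjusted p 0.0135), 0.10 and -0.25, per the authors' deposited tables. HTA8, another H2A.Z gene, stood at -0.85 (adjusted p 0.032), 0.28 and -0.83, per the authors' deposited tables. The differences of these 3 genes from arp6 had adjusted p-values of 0.153, 0.175 and 0.151, so the tests do not show that the double mutant was lower than arp6. Among the 10 SWI/SNF subunits listed, BRM was the one that passed. Of 20 core histone genes, 4 fell and 1 rose. The DNA damage histone GAMMA-H2AX was the remaining unshared one besides HTA8 and HTA9, at -0.78 in the authors' deposited table (adjusted p 0.0254).

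Of 52 light-harvesting and photosystem genes, 11 fell and none passed as higher, against 7.14% lower and 6.16% higher of all genes, and 8 (15.4%) were unshared, against 7.60%. Fold changes above 0 were found for 15 of the 52. The list's share of called genes, 21.2%, was close to the 20.8% of the highest of 5 bins of genes by log2 CPM, where the unshared members lie. In that bin 10.9% of genes were unshared, and 540 of 4471 were called lower, so level accounts for part of the distance from the shares of all genes. The median log2 fold change of the list was -0.25 in the double mutant, -0.36 in arp6 and -0.22 in brm, beside 0.005 for all genes in the double mutant. LHCA4, an antenna protein of photosystem I, stood at -0.75 in the double mutant (adjusted p 0.000214), -0.16 in arp6 and -0.36 in brm, per the authors' deposited tables. RBCS3B, a small subunit of Rubisco, stood at -0.73 (adjusted p 0.0014), -0.11 and -0.44, per the authors' deposited tables. LHB1B1 and LHCB3, antenna proteins of photosystem II, stood at -0.67 and -0.62 in the authors' deposited table (adjusted p 0.0026 and 0.00156). The smallest p of the list belonged to RBCS2B, another small subunit, at -1.47 (adjusted p 3.32e-16), -1.07 and -0.85, per the authors' deposited tables. The 8 unshared members lay between -0.75 and -0.41, at log2 CPM of 9 or more, and none differed from both single mutants. The list of green leaf markers shares members with this one, among them RBCS2B, RBCS3B and LHCB3, so it is no separate observation. It had 6 of 24 lower, none higher and 20 of 24 below 0. The part of a smaller share of green cells in these counts was not tested.

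Of 30 phosphate starvation genes, 5 (16.7%) rose, against 6.16% of all genes, and none fell. The unshared ones were 4 of the 26 listed in all tables (15.4%), against 7.60% of all genes. PAP17, a secreted acid phosphatase, stood at 1.23 in the double mutant (adjusted p 0.00194), -0.08 in arp6 and -0.11 in brm, per the authors' deposited tables. PAP12, another acid phosphatase, stood at 0.97 (adjusted p 1.37e-06), -0.20 and 0.21, per the authors' deposited tables. The phosphate transporter PHT1;4 stood at 1.18 (adjusted p 0.0101), -1.54 and -0.98, per the authors' deposited tables. SQD2, which makes the sulfolipid that replaces phospholipids, stood at 0.84 (adjusted p 0.000133), 0.41 and 0.05, per the authors' deposited tables. PAP12 and PHT1;4 were above arp6 by the test of the difference (adjusted p 0.00333 and 0.0395), and none of the 4 was shown to differ from brm (adjusted p 0.108 to 0.122).

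Of 26 nitrate and sulfate genes, 7 (26.9%) fell, against 7.14% of all genes, none passed as higher and 9 had fold changes above 0. The unshared ones were 3 (11.5%), against 7.60% of all genes. NRT1.8, a transporter that takes nitrate out of the xylem sap, stood at -3.80 in the double mutant (adjusted p 0.00265), -1.93 in arp6 and -2.90 in brm, per the authors' deposited tables. APR1, which reduces activated sulfate, stood at -0.66 (adjusted p 0.00247), -0.22 and -0.33, and the nitrogen-responsive repressor LBD37 at -0.53 (adjusted p 0.0106), -0.25 and 0.19, per the authors' deposited tables. LBD39, which acts like LBD37, had the smallest p of the list at -3.20 in the double mutant (adjusted p 6.84e-27), 0.11 in arp6 and -2.59 in brm, per the authors' deposited tables. Neither NRT1.8 nor LBD39 was shown to differ from brm (adjusted p 0.896 and 0.534).

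Of 22 iron genes, 6 rose and 3 fell (40.9% called, against 13.3% of all genes), and 2 of the 18 listed in all tables (11.1%) were unshared. PYE, a regulator of the iron deficiency response, stood at 1.1 in the double mutant (adjusted p 0.0109), -0.37 in arp6 and -0.05 in brm, per the authors' deposited tables. OPT3, a transporter that loads iron into the phloem, stood at 1.00 (adjusted p 0.000117), 0.47 and 0.53, per the authors' deposited tables. FRU (FIT), the master regulator of iron uptake, counted here among the bHLH factors, stood at 1.63 (adjusted p 0.038), 0.18 and 1.06, per the authors' deposited tables. The other 4 that rose were FRO3, an iron reductase, at 1.19, BTS, a regulator that restrains the iron response, at 0.92, and the regulators bHLH38 and BHLH100 at 8.08 and 6.32, per the authors' deposited table. BHLH100 had no row for arp6 and bHLH38 none for brm, and genes without such a row that passed were all higher. Both are counted among the 6 that rose, and folds of this size can depend on the prior count. In brm FRO3 stood at 1.63, BTS at 0.74 and BHLH100 at 6.08, per the authors' deposited table. For bHLH38 the difference from arp6 was 2.88 (SE 3.67, adjusted p 0.933), so it was not shown to differ from arp6. The bHLH list also holds bHLH115, which promotes the iron deficiency response and stood on the lower side, at -1.29 in the double mutant (adjusted p 3.3e-07), -0.12 in arp6 and -1.19 in brm, per the authors' deposited tables. The iron stores FER1, FER3 and FER4 fell, at -1.56, -1.43 and -1.54 in the authors' deposited table, and they stood at -1.61, -1.54 and -1.21 in brm, also per the authors' deposited table. No ferritin was shown to differ from brm (adjusted p 0.774 to 0.998), and regulators of the iron response lay on both sides.

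Copper- and oxygen-related genes included the targets of miR398. CSD1 and CSD2, the copper-zinc superoxide dismutases that miR398 cuts in Arabidopsis, stood at -2.63 and -2.98 in the double mutant (adjusted p 1.26e-37 and 6.43e-53), per the authors' deposited table. In arp6 they stood at -0.67 and -0.90 and in brm at -0.65 and -1.45, all called there too, per the authors' deposited tables. Their fold changes in the double mutant minus those in arp6 were -1.96 (SE 0.29, adjusted p 2.47e-09) and -2.08 (SE 0.31, adjusted p 1.02e-08). Minus those in brm they were -1.98 (SE 0.29, adjusted p 3.59e-09) and -1.53 (SE 0.30, adjusted p 1.82e-05), so both dismutases were lowest in the double mutant. MIR408, another copper-regulated precursor, stood at 3.49 (adjusted p 6.94e-16), 1.35 in arp6 and 2.4 in brm, per the authors' deposited tables. It was not shown to differ from arp6 (adjusted p 0.297) or from brm (adjusted p 0.616). Of 31 reactive oxygen and hypoxia genes, 3 rose and 6 fell, and 5 (16.1%) were unshared, against 7.60% of all genes. The plastid superoxide dismutase FSD2 and the sucrose synthase SUS1 stood at 0.99 and 0.96 in the authors' deposited table, and the peroxide-removing enzymes APX1 and GPX2 at -0.76 and -0.90.

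Of 27 gibberellin genes listed in all tables, 5 (18.5%) were unshared, against 7.60% of all genes, 3 higher and 2 lower. RGL2, a DELLA repressor of gibberellin responses, stood at 2.70 in the double mutant (adjusted p 1.87e-06), 0.67 in arp6 and 0.80 in brm, per the authors' deposited tables. The gibberellin-inactivating enzyme gene ATGA2OX1 stood at 1.75 (adjusted p 0.00794), 0.73 and -0.37, and the synthesis gene GA20OX1 at 1.23 (adjusted p 0.0192), -0.46 and 0.59, per the authors' deposited tables. Synthesis, inactivation and repression genes were thus all among those that rose. GASA1, a gibberellin-regulated peptide gene, stood at -1.27 (adjusted p 3.44e-05), -0.19 and -0.12, per the authors' deposited tables. Together with AT5G14920, at -0.77 in the authors' deposited table, GASA1 differed from both single mutants, while the higher 3 did not (adjusted p 0.226 to 0.842).

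**Figure D5:**
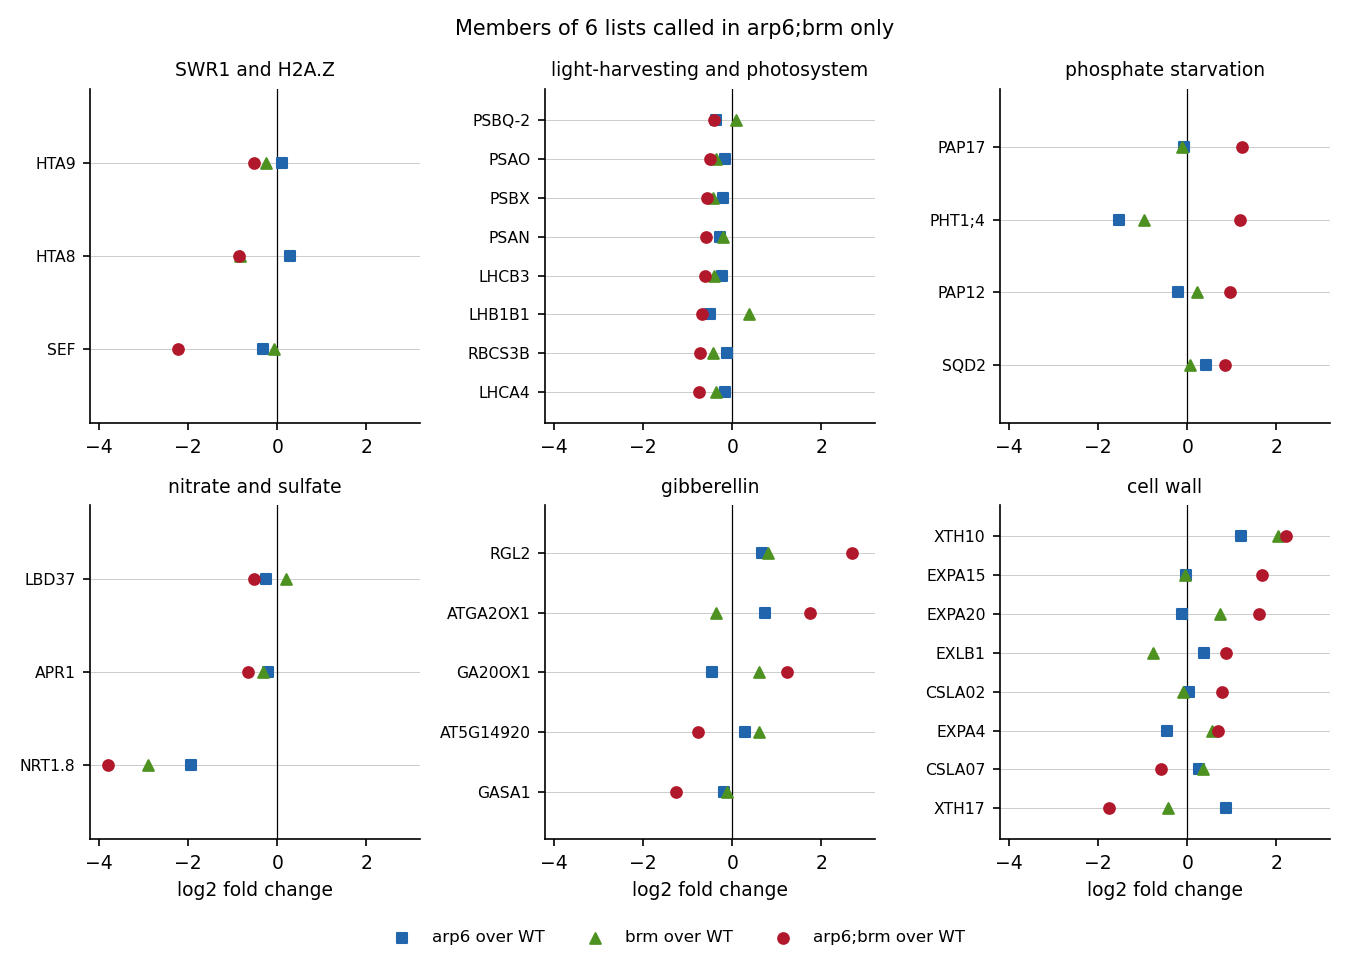
Each panel shows the unshared members of 1 list, with log2 fold change over WT on the x axis for arp6 (squares), brm (triangles) and arp6;brm (circles). Phosphate starvation genes lie right of 0 in the double mutant, from 0.84 to 1.23, and photosystem and SWR1 and H2A.Z genes left of it, while gibberellin and cell wall genes lie on both sides.

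Cell wall genes moved both ways. Of 81 xyloglucan-modifying, expansin and cellulose synthase family genes, 11 rose and 8 fell, and 8 of 80 were unshared, against 7.60% of all genes. Besides EXPA15, the expansin genes EXPA20 and EXPA4 stood at 1.61 and 0.70 in the double mutant, per the authors' deposited table. The endotransglucosylase genes XTH10 and XTH17 stood at 2.21 and -1.76 (adjusted p 0.0181 and 0.000173), per the authors' deposited table. For XTH17 the difference from arp6 was -2.63 (SE 0.51, adjusted p 3.2e-05), and that from brm, -1.31 (SE 0.55, adjusted p 0.152), did not pass. XTH10 was not shown to differ from arp6 (1.0, SE 1.69, adjusted p 0.984) or from brm (0.17, SE 1.35, adjusted p 0.998). The unshared expansins were all higher, and the endotransglucosylases lay on both sides.

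Auxin genes had an unshared share like that of all genes, 10 of 135 (7.4%), 8 of them higher. Of 138 listed, 15 rose and 5 fell. The transport gene PIN4 rose with the smallest p of the list, at 1.04 in the double mutant (adjusted p 2.05e-07), 0.14 in arp6 and 0.92 in brm, per the authors' deposited tables. The unshared small auxin-up gene SAUR15 stood at 1.79 (adjusted p 0.0258), and the transcriptional repressor gene IAA13 at 1.39 (adjusted p 0.00301), per the authors' deposited table.

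Most called heat shock genes were higher. Of 53 heat shock genes, 7 rose and 2 fell, and 6 of 52 (11.5%) were unshared, against 7.60% of all genes. The cytosolic chaperones Hsp70-15, HSP91 and HSC70-1 stood at 0.60, 0.48 and 0.48, and the plastid chaperone HSP93-III at 0.55, in the authors' deposited table. BIP3, which answers unfolded proteins in the endoplasmic reticulum, stood at 3.38 (adjusted p 0.0221), 2.6 in arp6 and 2.34 in brm, per the authors' deposited tables. The heat shock factor HSFA6B stood at -7.61 (adjusted p 0.000103), 0.55 and -1.71, per the authors' deposited tables, and a fold of this size at a log2 CPM of -1.43 depends on the prior count.

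Of 33 light signalling genes, 4 (12.1%) were unshared, against 7.60% of all genes. The photoreceptor PHYD and the growth-promoting factor PIF7 stood at 0.92 and 0.67, the shade response regulator PAR2 at 1.5, and PIL6 (PIF5) at -0.67, in the authors' deposited table. RNA silencing and DNA methylation genes gave 5 of 41 (12.2%). SGS3, AGO7 and CHR38 stood at 0.79, 0.72 and 0.78, and RDR6 and SUVH5 at -0.74 and -2.11, in the authors' deposited table. None of these 5 and none of the 4 light signalling genes differed from both single mutants. For RDR6 and SUVH5 the differences from arp6 were -0.06 and -0.41 (adjusted p 0.999 for both). SGS3 was higher than in brm (adjusted p 0.0191) but was not shown to differ from arp6 (adjusted p 0.96). SGS3 and RDR6 act together in making small RNAs from double-stranded RNA, and their fold changes had opposite signs. Of 32 small RNA precursors listed, most of them under a log2 CPM of 1, 3 rose and 1 fell, and MIR163 was the second unshared one after MIR398c, at 1.88 (adjusted p 0.0467) in the authors' deposited table.

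MYB, WRKY and NAC factors held unshared genes of both directions, near the 7.60% of all genes. These were 4 higher and 3 lower of 100 MYB factors, 2 and 3 of 61 WRKY factors, and 2 and 3 of 82 NAC factors. Of these, the 3 MYB factors and the 1 NAC factor that differed from both single mutants were lower. Other regulator families lay further from that share. Unshared were 6 of 37 bHLH factors (16.2%), 3 of 61 ethylene response factors (4.9%) and 0 of 21 TCP factors (0.0%). MYB73, a repressor of stress responses, stood at -1.75 in the double mutant (adjusted p 4.21e-09), 0.61 in arp6 and -0.19 in brm, per the authors' deposited tables. MYBR1 (MYB44) and MYB94, a regulator of cuticular wax, stood at -0.96 and -0.97, and the 3 of them differed from both single mutants (adjusted p 1.19e-08 to 0.0203). The wax synthesis gene CER1 stood at 0.76 (adjusted p 4.17e-05) in the authors' deposited table, with 4 of 26 epidermis and cuticle markers higher and 2 lower. WRKY22 and the immune regulator CBP60G stood at -1.57 and -1.27 in the authors' deposited table, and both were lower than in arp6 (adjusted p 0.000362 and 0.00112), while neither was shown to differ from brm (adjusted p 0.146 and 0.393). Of 24 salicylic acid immunity genes, CBP60G among them, 4 rose and 3 fell. NAC036 stood at -1.81 (adjusted p 0.0169) in the authors' deposited table and differed from both single mutants (adjusted p 0.0235 and 0.038). Of 129 immune receptors and receptor-like kinases, 9 rose and 7 fell, and 6 of 127 (4.7%) were unshared, under the share of all genes.

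Most called jasmonate genes were lower in the double mutant, and several of them stood above WT in brm. Of 41 listed, 10 fell and 2 rose, against 7.14% and 6.16% of all genes, and 3 (7.3%) were unshared, with a median of -0.50 in the double mutant, -0.14 in arp6 and 1.62 in brm. JAZ7, a repressor that jasmonate itself induces, was unshared and stood at -8.22 in the double mutant (adjusted p 4.62e-05), 1.07 in arp6 and 1.58 in brm, per the authors' deposited tables. Its log2 CPM of -0.85 and the size of the fold place it on the rim of genes whose fitted value depends on the prior count. TIFY7 (JAZ9) stood at -2.07 (adjusted p 3.84e-12), -0.76 and 2.16, and the synthesis gene AOC2 at -2.12 (adjusted p 1.21e-23), -1.64 and 1.06, per the authors' deposited tables. Their fold changes minus those in brm were -4.23 and -3.18 (SE 0.38 and 0.30, adjusted p 2.55e-26 and 9.67e-23). TIFY7 was also lower than in arp6 (adjusted p 0.00808), while the difference of AOC2 from arp6 did not pass (adjusted p 0.603). The storage proteins VSP1 and VSP2 stood at -3.10 and -2.51 in the double mutant, per the authors' deposited table, and both were lower than in brm (adjusted p 6.94e-05 and 0.0135).

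Some touch- and stress-inducible genes stood above WT in arp6 and below it in the double mutant, and those named here were chosen after their values were seen. TCH4, a touch-induced endotransglucosylase, stood at -1.95 in the double mutant (adjusted p 0.000217), 1.75 in arp6 and -0.91 in brm, per the authors' deposited tables. XTR6, of the same family, stood at -2.51 (adjusted p 0.000142), 2.67 and -1.37, per the authors' deposited tables. WRKY18, a regulator of defence, stood at -1.51 (adjusted p 5.41e-05), 1.83 and 1.91, per the authors' deposited tables. Their differences from arp6 were -3.70, -5.18 and -3.35 (SE 0.58, 0.67 and 0.41, adjusted p 3.21e-08, 3.75e-12 and 2.14e-13). The difference of WRKY18 from brm was -3.42 (SE 0.42, adjusted p 1.62e-13), and TCH4 and XTR6 did not differ from it at the threshold (adjusted p 0.361 and 0.581).

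In some lists most called genes were also called in a single mutant. Of 35 glucosinolate genes, 19 fell and none rose, and only UGT74B1 and NSP1 were unshared, at -0.71 and -0.70 in the authors' deposited table. Of 31 cold and abscisic acid response genes, 8 rose and 3 fell, with LTI65 and ABI2 unshared at 3.43 and 1.3 in the authors' deposited table. Among 20 flowering time genes, 3 rose and 3 fell, and AGL8 (FRUITFULL), which promotes flowering and fruit growth, was the unshared one, at 2.05 in the double mutant (adjusted p 0.000293), 1.32 in arp6 and 0.54 in brm, per the authors' deposited tables. The floral repressor FLC stood at 3.32 in the double mutant and 3.95 in brm, per the authors' deposited tables, so it was shared. In flavonoid synthesis, 6 of 25 genes fell and 2 rose, and the latter, MYB111 and TT5 (chalcone isomerase), were unshared at 1.56 and 0.98 in the authors' deposited table.

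The very large unshared changes included a stretch of chromosome 3. Of the 77 genes changed by 5 or more on the log2 scale, 48 were lower and 29 higher, and 20 of the 48 lower ones lay on chromosome 3, which holds 4257 of the 21408 genes. In locus order, 9 of them fell between AT3G24927 and AT3G28840, a stretch chosen after its values were seen, with 316 genes listed in all 3 tables, 37 of them unshared. Their fold changes ranged from -8.73 to -5.99 in the double mutant, from -4.14 to -1.26 in arp6 and from -1.13 to 1.56 in brm. AT3G28160 was the best measured, at -8.03 in the double mutant (adjusted p 5.22e-24), -1.26 in arp6 and 0.12 in brm, per the authors' deposited tables. Of the 9, 4 differed from both single mutants. The series also holds a list of deletions in the arp6 genome, and its positions were not used here.

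The change in the double mutant departed from the sum of the single-mutant changes at 1129 of 21408 genes (5.27%), 392 above the sum (1.83%) and 737 below it (3.44%). Of the unshared genes, 113 departed. Among those below the sum with the smallest p, TCH3, a calmodulin-like touch gene, stood at -1.93 in the double mutant (adjusted p 2.71e-16), 1.55 in arp6 and 1.68 in brm, per the authors' deposited tables. PP2-A5, a phloem protein 2 gene, stood at -1.23 (adjusted p 0.0034), 1.74 and 2.23, per the authors' deposited tables. Both genes were above WT in each single mutant and below it in the double mutant. Above the sum, ESM1, which modifies the breakdown of glucosinolates, stood at -1.78 in the double mutant, -4.99 in arp6 and -1.32 in brm, per the authors' deposited tables. AT2G25450 stood at -1.77, -4.81 and -1.56, per the authors' deposited tables. For these genes arp6 alone was the lowest of the 3, and the double mutant lay near brm (differences of -0.46 and -0.21, adjusted p 0.372 and 0.844). Whether the listed deletions in the arp6 genome touch them was not tested.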

How the data were processed

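RNA was isolated from nuclei, and 100 ng per sample entered library preparation, read as 36-nt pairs, per the labels' protocols. The submitters' processing notes name TopHat2, HTSeq, SAMtools, edgeR and the build TAIR10 without roles. For each mutant against WT, the authors deposited a table with the log2 fold change, the average log2 CPM and the raw and adjusted p-value of every gene. Recomputing the Benjamini-Hochberg adjustment over all rows of a table gave the deposited values. Counter rows that name no gene were left out. Their share of counts was taken from average levels over mutant and WT libraries together. It was 66.9% in the arp6 comparison, 69.3% in the brm comparison and 70.7% in that of the double mutant.

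Genes were called at an adjusted p under 0.05. No counts per library were used, so calls rest on the p-values of the authors. For differences between tables, each standard error was the fold change over the normal quantile of its p-value, not below the median of 20 bins of log2 CPM (genes with p above 0.5 took the median). The normal test with Benjamini-Hochberg adjustment over all genes followed. WT error was counted in both tables, and that step by itself makes the test conservative. Whether the test as a whole is conservative was not tested, as it also rests on the rebuilt standard errors. The test was also run on simulated data with normal errors of the same rebuilt sizes. Such a run cannot check the rebuilding of the standard errors. Symbols came from RefSeq (TAIR10.1), which matched 22318 IDs and left 34 without a match. Members and lists were chosen with earlier results of these data known. Named genes are those mutated, the 10 largest unshared changes per direction that differed from both single mutants at a log2 CPM of at least 1, up to 4 unshared members per list with its smallest p and highest level, and 6 departures per direction. Other genes named were chosen after their values were seen. Positions of H2A.Z, nucleosomes and deletions were not used here. Python 3.11.15, numpy 2.4.6, pandas 2.3.3, scipy 1.17.1 and matplotlib 3.10.9 were used.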

Additional observations from a re-analysis of the deposited data

Results flagged for a closer look

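The genes whose change in the double mutant departed most clearly from the sum of the single-mutant changes were noted because the difference itself passed the test, with adjusted p-values of 3.34e-23 or lower. Above the sum stood SADHU1-1 by 9.67, AT2G06950 by 11.04, ESM1 by 4.53, AT2G25450 by 4.60, AT2G27402 by 7.94 and AT2G24755 by 7.15 on the log2 scale. In the authors' deposited tables, all 6 were lower in arp6, at -9.76, -9.76, -4.99, -4.81, -7.74 and -7.21. In the double mutant they stood at -0.35, 0.38, -1.78, -1.77, -2.04 and -0.13, per the authors' deposited table. All but ESM1 lie on chromosome 2 by their locus names. The series also holds a list of deletions in the arp6 genome, and whether these touch any of the 6 genes was not tested.

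Below the sum stood AT5G66052 by -12.45, TCH3 by -5.15, AT3G15356 by -4.84, AT5G54710 by -4.93, PP2-A5 by -5.20 and AT3G15450 by -3.78. AT5G66052 stood at -11.87 in the double mutant, -0.10 in arp6 and 0.68 in brm, per the authors' deposited tables. The other 5 were above WT in both single mutants, by 0.41 to 1.74 in arp6 and 0.99 to 2.91 in brm, and below it in the double mutant, at -1.93, -0.50, -1.40, -1.23 and -2.38, per the authors' deposited tables.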

How the results depend on the processing

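No paired analysis was possible because the tables carry no value per library, and leaving out single replicates was not possible for the same reason. At an adjusted p under 0.01, 1752 genes were called in the double mutant, 992 of them unshared at that threshold, and called list members numbered 221 in place of 340. At an adjusted p under 0.2, these were 5584 and 2665, the genes that differed from both single mutants numbered 204, and those that departed from the sum 2127. A minimum change of 1 on the log2 scale, either way, left 1519 called and 700 unshared genes. Requiring an unadjusted p of 0.05 or above in both single mutants left 1008. With the WT part of the variance removed, 378 unshared genes differed from both single mutants, 163 higher and 215 lower. In that setting 2226 genes departed from the sum, 963 above and 1263 below. These counts and their balance of directions rest on how the shared WT error is treated. A log2 CPM of at least 1, adjustment without counter rows, counting a gene without a row as not called, no floor on the standard error and centring moved no count by over 1.5 times, nor did rescaling to equal summed CPM, which was chosen after seeing the data. That rescaling turned the sign of 6 list medians lying between -0.05 and -0.02, those of SWI/SNF, clock, MYB, stomata and trichome, DNA repair, and starch and sugar genes. Of 160 recomputed differences of the 20 largest genes, 158 still passed, none reversed and the 2 lost ones were those of AT1G76955. Depth is unknown, and tests that needed gene positions (H2A.Z, nucleosomes, deletions, promoter motifs) were not run.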
